A study of Arabidopsis thaliana with 21 samples.

Results

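The 100 genes described here are those whose transcript level stood furthest above every other line in root cells sorted from the PEAR1 reporter line of Arabidopsis thaliana. A gene was eligible when it reached 10 CPM (counts scaled by the library total) in each of the 4 PEAR1 libraries, which 11611 of the 33602 genes listed did, mitochondrial and chloroplast genes being left out. The eligible genes were ranked by the log2 ratio of the mean PEAR1 CPM plus 1 to the highest mean CPM plus 1 among the other 5 lines, and the first 100 were taken. The members were thus chosen by measured values, the PEAR1 levels and the line means, so every value of PEAR1 against another line is a description and carries no test.

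The study sorted fluorescent protoplasts, cells freed of their walls by enzymes, from the roots of 5-day-old seedlings of 6 reporter lines and sequenced amplified cDNA in 21 libraries. The PEAR1 line carries pPEAR1::3xYFP and gave 4 libraries, numbered 1 to 4. The PEAR1-DBOX line carries pPEAR1::DBOX-3xYFP, the same promoter in front of a reporter labelled DBOX, and gave 2 libraries, numbered 3 and 5. The CVP2-DBOX line carries pCVP2::DBOX-3YFP and gave 4 libraries. The CALS7 line is labelled pCASL7::H2B-YFP pS32::erRFP and gave 4, the NAC57 line carries pNAC57::2GFP pCALS7::H2B-RFP and gave 3, numbered 1, 2 and 4, and the NAC73 line carries pNAC73::H2B-YFP pS32::erRFP and gave 4. Each group is 1 named line, no treatment is named for any of them, and the colour used for the sort is not stated. Promoter, line, gate and handling cannot be told apart in a comparison between lines.

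PEAR1 is a DOF-family transcription factor made in the youngest protophloem sieve element cells of the root tip, from where the protein moves into neighbouring cells and promotes their division. CVP2 encodes a phosphoinositide phosphatase of developing protophloem, CALS7 the enzyme that deposits callose at sieve pores, and sieve elements later lose their nuclei under the control of NAC-family factors. Cells next to this file include companion cells, procambium, xylem precursors and the pericycle, the layer inside the endodermis that loads ions into the xylem and from which lateral roots arise. A promoter reporter marks every cell in which the promoter is active or the fluorescent protein lasts, so a sort can hold more than 1 cell type.

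The files held 23513921 to 36198012 counts per library, and 3 counts, the floor used here, corresponded to 0.083 to 0.128 CPM. The PEAR1 gene itself averaged 275 ± 45.4 CPM in PEAR1 and 299 ± 11.00 CPM in PEAR1-DBOX, against 526 ± 51.5 CPM in CVP2-DBOX and 111 ± 11.3 CPM in NAC73 (SD, n = 4, 2, 4 and 4). Of 14 early protophloem genes, all 14 were eligible and none was a member, and their summed level was 3597 to 4317 CPM in PEAR1. It was higher in CVP2-DBOX, at 6601 to 8353 CPM, and in NAC57, at 6045 to 7095 CPM. CALS7 had 4122.5 to 5468 CPM, PEAR1-DBOX 2514 to 3352 CPM and NAC73 2569 to 2834 CPM. Of 14 late sieve element genes none was a member either. In the line labelled NAC57 the transcript of NAC057 averaged 23.3 ± 10.6 CPM, below the 453 ± 31.7 CPM of CALS7 and the 393 ± 74.03 CPM of NAC73 (SD, n = 3, 4 and 4), so NAC57 is used below as the label's name for that line.

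The members' ratio in log2(CPM + 1) ran from 3.67 at rank 1 to 2.18 at rank 100 with a median of 2.47, that is, 12.7-fold to 4.53-fold with a median of 5.56-fold. Just inside the limit stood RAX2, GT72B1 and AT3G62270 at 4.54-fold, 4.54-fold and 4.53-fold. Just outside it stood AT5G23350, BAT1 and LRL1 at 4.51-fold, 4.50-fold and 4.49-fold, so the limit falls inside a smooth run of values. In 99 members every PEAR1 library lay above each of the 17 libraries of the other lines. The rule itself favours such a separation, and its share over eligible genes was not counted. The exception was TPPH, where PEAR1 library 1 had 11.1 CPM, against 12.2 CPM in NAC57 library 2. The line that came next was PEAR1-DBOX for 53 members, NAC57 for 40, CVP2-DBOX for 5, CALS7 for 1 and NAC73 for 1. All 100 members matched the RefSeq annotation by locus, 61 of them with a symbol.

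**Figure D1:**
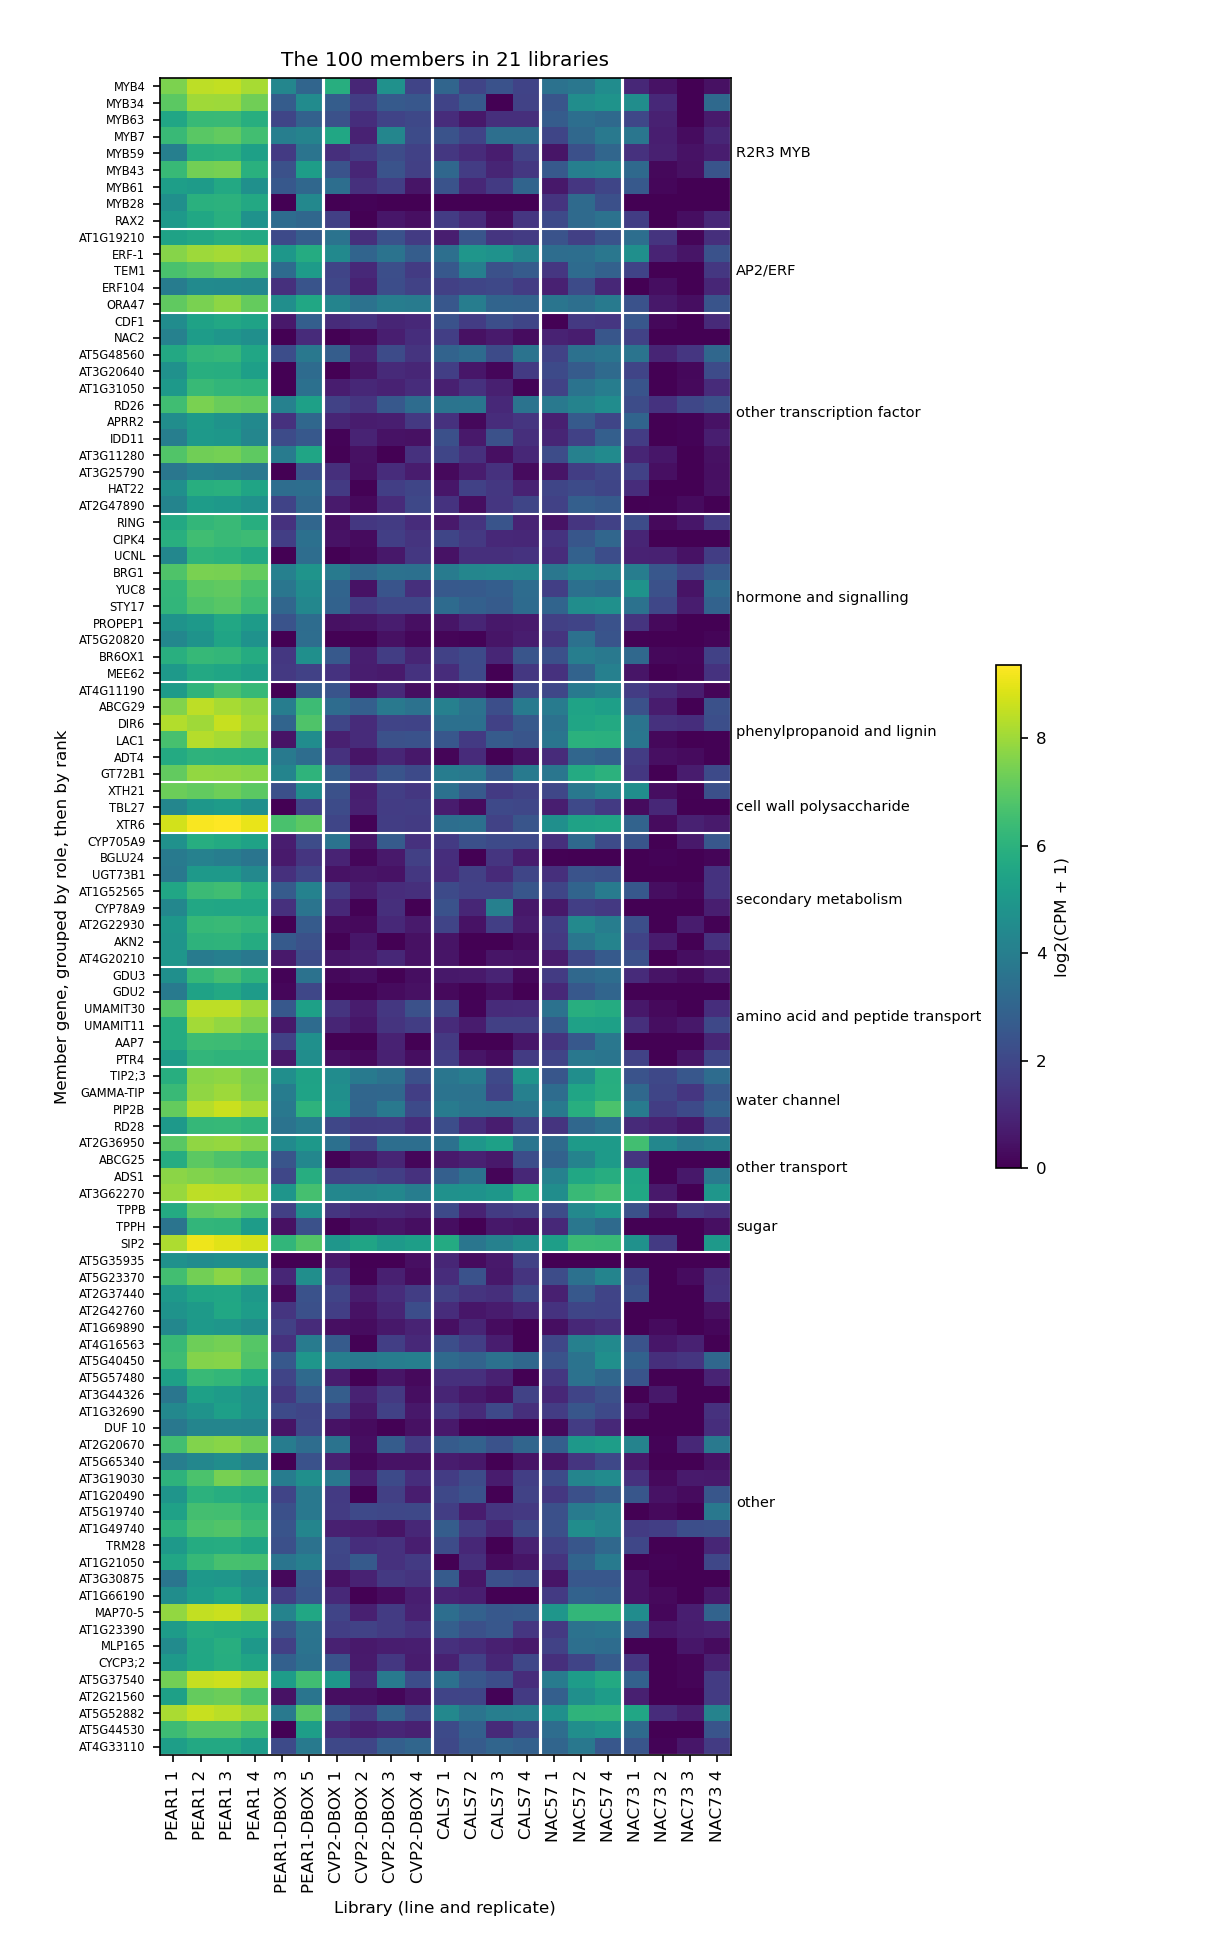
Level of the 100 members in each of the 21 libraries, as log2(CPM + 1) in colour, with members down the page by role and rank and libraries across the page by line. The 4 PEAR1 columns are brightest in nearly every row, PEAR1-DBOX library 5 and NAC57 libraries 2 and 4 are next, and NAC73 libraries 2 and 3 hold 39 and 45 members at 0 counts.

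The stretches of 250 bases before the annotated gene start are shown for 5 members: MYB4, the first of all members by rank; XTR6, which had the highest PEAR1 level; and XTH21, YUC8 and ABCG29, which carry the letters TATAAA close to the start. Each is printed 5′ to 3′ on the gene's strand from the RefSeq TAIR10.1 genome, all 5 genes lie on the plus strand, and capitals mark TATAAA. The windows are chr4:18053110-18053359 for MYB4, chr4:13128144-13128393 for XTR6, chr2:8144631-8144880 for XTH21, chr4:14192319-14192568 for YUC8 and chr3:5539135-5539384 for ABCG29.
MYB4: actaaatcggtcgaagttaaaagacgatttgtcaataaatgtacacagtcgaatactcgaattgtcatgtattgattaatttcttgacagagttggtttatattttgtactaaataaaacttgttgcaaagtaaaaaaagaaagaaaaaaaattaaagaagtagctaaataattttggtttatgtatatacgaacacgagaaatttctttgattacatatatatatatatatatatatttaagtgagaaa
XTR6: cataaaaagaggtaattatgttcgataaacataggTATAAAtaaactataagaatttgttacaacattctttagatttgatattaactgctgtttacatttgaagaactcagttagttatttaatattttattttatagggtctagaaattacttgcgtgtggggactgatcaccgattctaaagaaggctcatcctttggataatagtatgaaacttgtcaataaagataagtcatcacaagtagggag
XTH21: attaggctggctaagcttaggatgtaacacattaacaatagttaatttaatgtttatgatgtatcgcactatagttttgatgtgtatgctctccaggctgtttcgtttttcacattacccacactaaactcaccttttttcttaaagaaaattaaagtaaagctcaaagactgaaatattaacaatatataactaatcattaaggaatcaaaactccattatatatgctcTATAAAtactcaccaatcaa
YUC8: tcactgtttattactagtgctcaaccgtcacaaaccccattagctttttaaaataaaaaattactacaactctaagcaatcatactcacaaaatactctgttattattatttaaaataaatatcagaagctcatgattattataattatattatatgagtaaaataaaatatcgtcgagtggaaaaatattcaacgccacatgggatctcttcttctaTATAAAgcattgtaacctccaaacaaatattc
ABCG29: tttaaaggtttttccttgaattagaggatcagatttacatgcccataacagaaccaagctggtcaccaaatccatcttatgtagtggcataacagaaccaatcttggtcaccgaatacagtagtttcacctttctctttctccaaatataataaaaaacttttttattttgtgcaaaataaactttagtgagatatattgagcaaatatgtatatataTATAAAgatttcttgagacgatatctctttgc
TATAAA, the core of the TATA box at which transcription initiation assembles, was searched with 7 other motifs in the same window of all members. On either strand it stood in 64% of the 100 members, against 46.0% of 11607 eligible genes and 45.8% of 32834 genes with a window. Restricted to the gene's strand and to the last 50 bases before the start, it stood in 19 members (19%), against 9.67% of eligible genes. MYB4 has no match on its own strand in its window, XTR6 has 1 far from the start, and XTH21, YUC8 and ABCG29 have it near the start.

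The other motif shares lay closer together, both strands searched. The G-box CACGTG stood in 7% of members and 7.74% of eligible genes, and ACGTG, the core of abscisic acid response elements and also part of the G-box, in 26% and 23.1%. The W box bound by WRKY factors, searched as TTGACC and TTGACT, stood in 20% of members and 26.8% of eligible genes, and GCCGCC, the GCC box bound by ERF factors, in 1% and 1.87%. The AC element bound by R2R3 MYB factors of the phenylpropanoid pathway, searched as ACCTACC and ACCAACC, stood in 6% of members and 3.87% of eligible genes. The CGCG box, searched as CGCG preceded by A or C and followed by G or T, stood in 4% and 4.24%, and AAAG, the core bound by DOF factors such as PEAR1, in 99% and 98.04%. A match is a run of letters and does not show binding.

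Of the members, 26 encode transcription factors, and 9 of these are R2R3 MYB proteins: MYB4, MYB34, MYB63, MYB7, MYB59, MYB43, MYB61, MYB28 and RAX2. Among eligible genes 24 carry a numbered MYB symbol or are RAX2, and these 9 are among them. The 24 were counted by symbol, so other R2R3 MYB genes under another name are left out. They are therefore not the whole of the eligible family, and a share of members in it was not counted. The R2R3 MYB family controls phenylpropanoid and lignin synthesis, glucosinolate synthesis and cell identity in plants. The role groups used here were formed after the members were known.

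MYB4, a repressor of phenylpropanoid genes, led the ranking at 12.7-fold over the next line. It had 182, 339.8, 361 and 280.1 CPM in PEAR1 libraries 1 to 4 and 18.5 and 7.41 CPM in PEAR1-DBOX libraries 3 and 5, against 58.2, 1.03, 25.6 and 2.81 CPM in CVP2-DBOX, 7.34, 2.81, 4.17 and 2.65 CPM in CALS7, 10.5, 12.1 and 22.6 CPM in NAC57 and 1.05, 0.371, 0 and 0.340 CPM in NAC73. No library of another line reached the lowest PEAR1 library, and CVP2-DBOX libraries 1 and 3 stood above both PEAR1-DBOX libraries. MYB7, its close relative and also a repressor, had 80.3, 123, 139 and 92.03 CPM in PEAR1 and 14.9 and 17.3 CPM in PEAR1-DBOX, against 46.9, 0.884, 18.5 and 3.40 CPM in CVP2-DBOX. In both genes CVP2-DBOX libraries 1 and 3 were the high ones of their line and libraries 2 and 4 the low ones.

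MYB63, an activator of lignin genes, averaged 65.3 ± 16.8 CPM in PEAR1, against 7.73 ± 1.98 CPM in NAC57, the next line (SD, n = 4 and 3). MYB43 and MYB61, both linked to secondary wall formation, averaged 118 ± 57.1 and 36.6 ± 10.2 CPM in PEAR1, against 20.2 ± 22.8 and 6.35 ± 2.02 CPM in PEAR1-DBOX (SD, n = 4 and 2). MYB59 averaged 43.2 ± 20.8 CPM in PEAR1, against 6.64 ± 6.58 CPM in PEAR1-DBOX, and RAX2, which acts in axillary meristems of the shoot, 41.4 ± 14.9 CPM against 8.33 ± 0.692 CPM. MYB43 and MYB59 were among the least even members inside the PEAR1 line, with coefficients of variation of 48.2% and 48.1%.

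A pair of glucosinolate regulators is among the 9. MYB34, an activator of indolic glucosinolate synthesis from tryptophan, had 128, 259, 251 and 160.4 CPM in PEAR1, against 4.56, 22.99 and 27 CPM in NAC57, the next line. Every PEAR1 library stood above the highest NAC57 library. MYB28, the main activator of glucosinolate synthesis from methionine, had 24.4, 60.4, 62.97 and 49.2 CPM in PEAR1 and 0 and 19.9 CPM in PEAR1-DBOX, against 1.68, 8.51 and 3.87 CPM in NAC57 and 0 counts in every CALS7 and NAC73 library. Its PEAR1-DBOX level came from library 5 alone.

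The pathway genes on the glucosinolate list of 11 can be set beside these regulators, since 5 of the 11 were eligible and MYB28 was the 1 member. CYP79B2 and CYP83B1, enzymes of the indolic branch, averaged 279 ± 50.2 and 317 ± 102 CPM in PEAR1, against 79.4 ± 53.2 and 91.1 ± 64.5 CPM in NAC57 (SD, n = 4 and 3), and stood at ranks 224 and 227. CYP79B3, of the same step as CYP79B2, stood at rank 902 with 131 CPM in PEAR1. Of the methionine branch, CYP79F1, CYP79F2, CYP83A1, BCAT4 and MAM1 averaged 1.83, 1.33, 0.421, 0.408 and 0.999 CPM in PEAR1. These 5 enzyme genes thus averaged under 2 CPM in the PEAR1 libraries. AKN2, an adenosine phosphosulfate kinase whose product is the sulfate donor of the last step of glucosinolate synthesis, was a member with 53.5 ± 17.8 CPM in PEAR1, against 10.3 ± 7.77 CPM in NAC57.

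**Figure D2:**
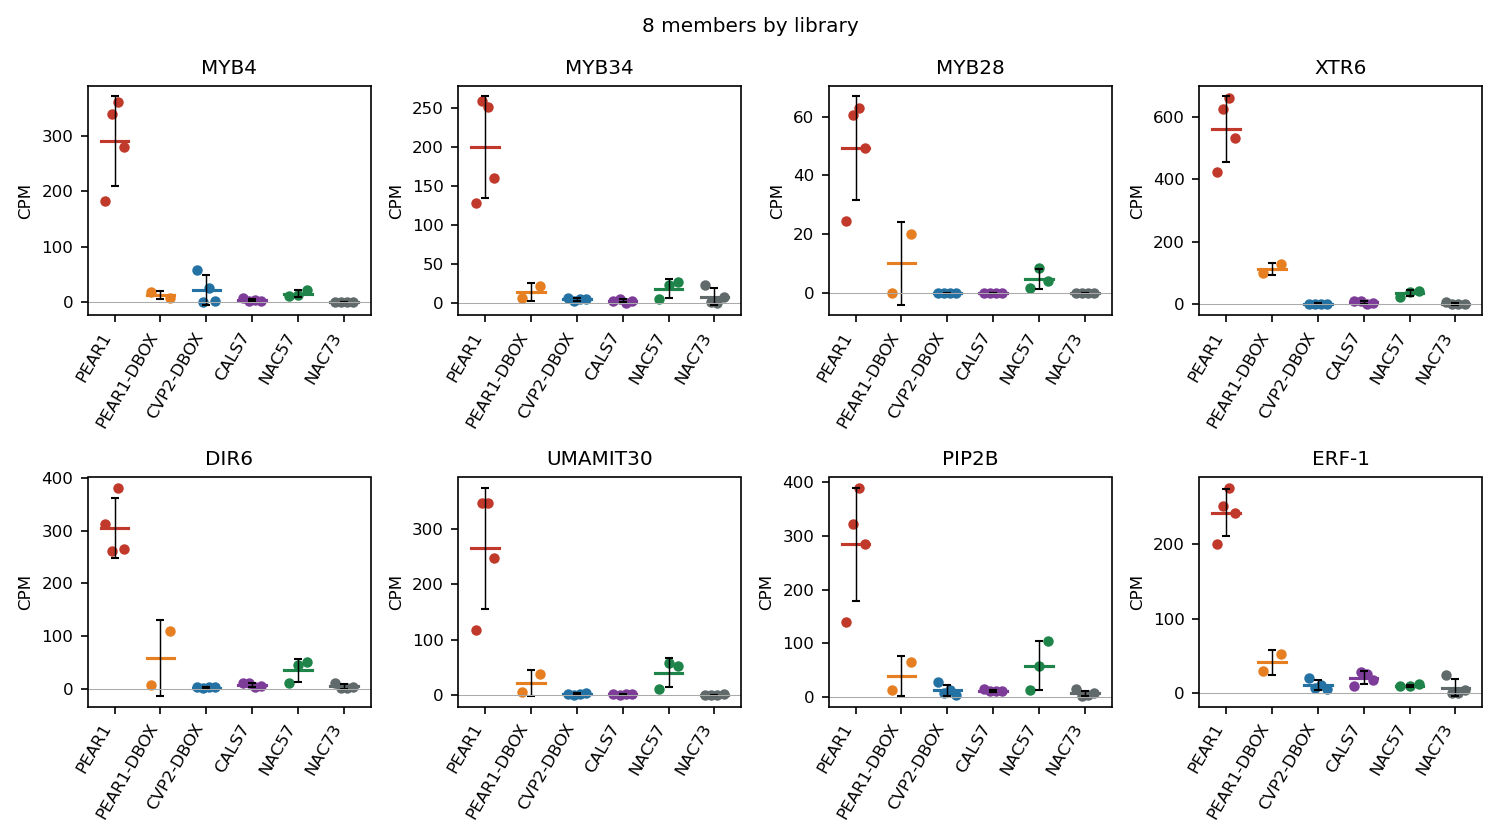
CPM of 8 members in every library (points), with the mean of each line (bar) and its SD (whisker), lines from left to right being PEAR1, PEAR1-DBOX, CVP2-DBOX, CALS7, NAC57 and NAC73. PEAR1 library 1, the leftmost PEAR1 point, is the lowest of its line in 7 of the 8 panels, DIR6 being the exception, and MYB28 is at 0 in CALS7 and NAC73.

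The 5 AP2/ERF members had a different profile, in which PEAR1-DBOX was the next line for 4 and NAC57 for none. ERF-1, an ethylene-responsive factor that binds the GCC box, had 200.0, 251, 275 and 241 CPM in PEAR1 and 29.8 and 53.3 CPM in PEAR1-DBOX, against 9.27, 9.47 and 12.1 CPM in NAC57. ORA47, a regulator of jasmonate synthesis, had 133, 179, 220.0 and 139 CPM in PEAR1 and 23.8 and 46.9 CPM in PEAR1-DBOX, against 11.4, 9.76 and 13.01 CPM in NAC57. In both genes both PEAR1-DBOX libraries lay above all 3 NAC57 libraries. TEM1, a repressor of flowering, averaged 119 CPM in PEAR1 against 21.5 CPM in PEAR1-DBOX, ERF104, a substrate of a defence kinase, 18.9 against 2.96 CPM, and AT1G19210 48.5 against 4.54 CPM. All 5 had a lower NAC57 mean than PEAR1-DBOX mean.

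The AP2/ERF members were also even inside PEAR1, with coefficients of variation of 12.7% to 23.97% and a median of 14.9%, where the median over all members was 27.7% and over eligible genes 13.5%. The 30 touch, wound and defence genes, which respond quickly to handling, cutting and pathogens, form a list chosen with earlier results of these data known. This list was highest in PEAR1 and PEAR1-DBOX. Its summed level was 2632 to 3279 CPM in PEAR1 and 2049 to 2498 CPM in PEAR1-DBOX, against 225 to 447 CPM in CVP2-DBOX, 573 to 751 CPM in CALS7, 322 to 418 CPM in NAC57 and 72.5 to 472 CPM in NAC73. None of its 30 genes was a member although 18 were eligible, and its part in the levels of the AP2/ERF members was not tested.

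The other 12 transcription factors include RD26, a NAC factor induced by drought and abscisic acid, which averaged 138 ± 37.2 CPM in PEAR1, against 27.3 ± 15.8 CPM in PEAR1-DBOX (SD, n = 4 and 2). NAC2 averaged 26.3 ± 7.88 CPM in PEAR1, against 2.07 ± 2.23 CPM in NAC57. CDF1, a DOF repressor of flowering, averaged 38.1 ± 11.03 CPM in PEAR1, against 3.28 ± 3.85 CPM in PEAR1-DBOX. The highest in level was AT3G11280, annotated as a homeodomain-like MYB-related protein, with 112, 159, 170.3 and 131 CPM in PEAR1 and 13.9 and 44.7 CPM in PEAR1-DBOX, against 3.56, 16.4 and 21.2 CPM in NAC57 and at most 2.86 CPM in any library of the other 3 lines. The remaining 8 were the basic helix-loop-helix genes AT5G48560, AT3G20640 and AT1G31050, the homeobox gene HAT22, the zinc finger gene IDD11, the response-regulator relative APRR2, the B-box gene AT2G47890 and the MYB-like AT3G25790, which ranged from 14.3 to 62.1 CPM in PEAR1.

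Among the 10 members of hormone synthesis and signalling, YUC8, an enzyme of auxin synthesis, had 71.8, 128, 134 and 98.4 CPM in PEAR1 and 11.7 and 22.5 CPM in PEAR1-DBOX, against 26.99, 4.00, 0.403 and 8.76 CPM in NAC73. NAC73 library 1 lay above both PEAR1-DBOX libraries, and no library reached the PEAR1 range. BR6OX1, an oxidase of brassinosteroid synthesis, averaged 64.99 ± 11.02 CPM in PEAR1, against 13.1 ± 15.9 CPM in PEAR1-DBOX (SD, n = 4 and 2). PROPEP1, the precursor of a peptide signal released by damaged cells, averaged 35.3 ± 9.22 CPM in PEAR1, against 6.59 ± 3.29 CPM in PEAR1-DBOX.

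The ranks 2 and 5 belong to this group. RING (AT4G19700), a RING-type ubiquitin ligase that limits cell death, was 12.01-fold above the next line, with 64.97 CPM in PEAR1 against 4.49 CPM in PEAR1-DBOX. CIPK4, a kinase of calcium signalling, was 11.02-fold above it, with 78.1 against 6.19 CPM. BRG1, a relative of RING, averaged 151 ± 31.8 CPM in PEAR1, against 21.8 ± 8.18 CPM in PEAR1-DBOX and 17.8 ± 2.62 CPM in CALS7 (SD, n = 4, 2 and 4). The remaining 4, the kinase genes UCNL, STY17 and MEE62 and the SAUR-type auxin-responsive gene AT5G20820, averaged 29.2 to 96.6 CPM in PEAR1.

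Phenylpropanoid and lignin metabolism, which builds monolignols from phenylalanine and couples them into lignin and lignans, holds 6 members. DIR6, a dirigent protein that steers the coupling of monolignols into lignans, had 313, 260.4, 381 and 265 CPM in PEAR1 and 7.05 and 110.0 CPM in PEAR1-DBOX, against 10.3, 44.3 and 50.5 CPM in NAC57. PEAR1-DBOX library 5 was high and library 3 low, and NAC57 libraries 2 and 4 were high and library 1 low. ABCG29, a plasma membrane exporter of a monolignol, averaged 264 ± 66.2 CPM in PEAR1, against 49.5 ± 49.4 CPM in PEAR1-DBOX (SD, n = 4 and 2). LAC1, a laccase of the family that oxidises monolignols, averaged 228 ± 96.5 CPM in PEAR1, against 44.7 ± 28.9 CPM in NAC57 (SD, n = 4 and 3).

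ADT4, which makes phenylalanine from arogenate, was one of the most even members, with 51.9, 64.9, 63.9 and 61.1 CPM in PEAR1 and 13.4 and 9.18 CPM in PEAR1-DBOX, against 1.23, 7.61 and 6.37 CPM in NAC57. Here PEAR1-DBOX library 3 was the higher of its pair. GT72B1, a glucosyltransferase that acts on monolignols, averaged 198 CPM in PEAR1, against 42.8 CPM in NAC57, and AT4G11190, a second dirigent-like gene, 69.8 against 11.1 CPM. The xylem list of 19 genes, which holds secondary wall cellulose synthases and lignin laccases, had no eligible gene and summed to 63.4 to 275 CPM in PEAR1 and 34.2 to 132 CPM in PEAR1-DBOX, against 8.55 to 96.5 CPM over the libraries of the other 4 lines.

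The 3 members that modify wall polysaccharides act on xyloglucan, the main hemicellulose of these walls. XTR6, a xyloglucan endotransglucosylase, had the highest level of all members, with 424, 624, 658 and 532 CPM in PEAR1 and 100.6 and 128 CPM in PEAR1-DBOX, against 24.1, 41.1 and 43.7 CPM in NAC57 and at most 9.84 CPM in any library of the other 3 lines. Both PEAR1-DBOX libraries stood above all NAC57 libraries. Per kilobase of exon XTR6 was also the highest member, at 408 CPM per kb in PEAR1, where the members ranged down to 3.66 with a median of 41.6. XTH21, of the same enzyme family, had 154, 139, 154 and 127 CPM in PEAR1, a coefficient of variation of 9.17%, against 3.93 and 22.99 CPM in PEAR1-DBOX. TBL27, which acetylates xyloglucan, averaged 26.8 ± 6.87 CPM in PEAR1, against 2.16 ± 1.09 CPM in CVP2-DBOX.

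Apart from AKN2, the members of secondary metabolism were the cytochrome P450 genes CYP705A9, CYP78A9 and AT1G52565, the glucosyltransferase genes UGT73B1 and AT2G22930, the terpene cyclase gene AT4G20210 and the beta-glucosidase gene BGLU24. Their PEAR1 means ran from 13.9 CPM for BGLU24 to 68.8 CPM for AT1G52565. AT4G20210 was 1 of the 3 members with PEAR1 library 1 as the highest of its line, with 29.5, 13.8, 15.6 and 12.5 CPM in PEAR1. CYP705A9 averaged 43.4 ± 13.3 CPM in PEAR1, against 4.54 ± 4.67 CPM in CVP2-DBOX.

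Transport of amino acids and peptides holds 6 members. UMAMIT30 and UMAMIT11 belong to a family of bidirectional amino acid facilitators, of which 11 genes were eligible and these 2 were members. UMAMIT30 had 117, 348, 348 and 247 CPM in PEAR1 and 4.95 and 38.6 CPM in PEAR1-DBOX, against 10.6, 57.8 and 53.2 CPM in NAC57 and at most 4.05 CPM in any library of the other 3 lines. UMAMIT11 had 53.6, 265, 232 and 174 CPM in PEAR1 and 0.525 and 8.61 CPM in PEAR1-DBOX, against 5.36, 40.01 and 38.99 CPM in NAC57. In both genes PEAR1 library 1, PEAR1-DBOX library 3 and NAC57 library 1 were the low ones of their lines.

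GDU3 and GDU2, membrane proteins of the GLUTAMINE DUMPER family that raise amino acid export, averaged 65.2 ± 29.3 and 34.5 ± 15.3 CPM in PEAR1, against 6.39 ± 3.79 and 4.51 ± 3.17 CPM in NAC57 (SD, n = 4 and 3). AAP7, of the amino acid permease family, had 52.8, 85.8, 83.6 and 76.9 CPM in PEAR1, against 2.52 and 25.3 CPM in PEAR1-DBOX. PTR4, of the peptide transporter family, had 35.01, 70.1, 66.3 and 67.9 CPM in PEAR1, against 0.553 and 23.3 CPM in PEAR1-DBOX. For all 6 genes PEAR1 library 1 was the lowest of its line, and the median coefficient of variation in PEAR1 was 42.8%, the highest of the role groups.

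The 4 water channel members are the plasma membrane aquaporins PIP2B and RD28 and the vacuolar membrane aquaporins GAMMA-TIP and TIP2;3. PIP2B had 139, 323, 389 and 286 CPM in PEAR1 and 12.6 and 65.2 CPM in PEAR1-DBOX, against 12.8, 57.03 and 104 CPM in NAC57, and its lowest PEAR1 library was above the highest NAC57 library. RD28 had 32.3, 73.6, 75.4 and 67.1 CPM in PEAR1 and 10.9 and 14.8 CPM in PEAR1-DBOX, against 1.68, 7.83 and 10.3 CPM in NAC57. GAMMA-TIP and TIP2;3 averaged 185 ± 75.3 and 164 ± 73.6 CPM in PEAR1, against 36.9 CPM in NAC57 and 32.4 CPM in PEAR1-DBOX. PIP2B and RD28 lie side by side on chromosome 2 and are read away from each other, at chr2:15613368-15615022 on the minus strand and chr2:15617635-15619155 on the plus strand (TAIR10.1). They share 14.7% and 16.5% of their exonic 50-base stretches, so some reads of either could have been assigned to the other.

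The aquaporin list of 6 genes, all eligible, held 3 of these members, and the eligible genes of the list had a median log2 ratio of 1.96. PIP2;1, the most abundant, averaged 1942 ± 693 CPM in PEAR1, against 677 ± 469 CPM in NAC57 (SD, n = 4 and 3), and stood at rank 357. TIP2;2 averaged 42.8 ± 14.6 CPM in PEAR1, against 39.3 ± 5.22 CPM in PEAR1-DBOX, and stood at rank 2091.

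Other transporters were ABCG25, an exporter of abscisic acid, with 93.9 ± 31.4 CPM in PEAR1 against 19.1 ± 13.4 CPM in NAC57, and ADS1, of the MATE efflux family, with 188 ± 19.98 against 39.9 ± 21.1 CPM (SD, n = 4 and 3). AT3G62270, of the family of boron exporters, had 301 ± 49.6 CPM in PEAR1, against 65.5 ± 37.4 CPM in NAC57, and AT2G36950, a heavy-metal-binding domain gene, had 195 ± 49.6 CPM, against 34.9 ± 37.7 CPM in NAC73 (SD, n = 4 each for the second). Of sugar metabolism, TPPB and TPPH, which remove phosphate from the signal sugar trehalose 6-phosphate, averaged 108 ± 41.3 and 46.9 ± 28.9 CPM in PEAR1, against 17.5 ± 12.9 and 7.23 ± 5.62 CPM in NAC57. TPPH was the least even member in PEAR1, with 11.1, 71.1, 69.7 and 35.6 CPM. SIP2, a raffinose-cleaving alpha-galactosidase, averaged 445 ± 109.9 CPM in PEAR1, against 92.6 ± 30.6 CPM in PEAR1-DBOX.

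The remaining 30 members fall into none of these roles, and 15 of them had PEAR1-DBOX and 14 NAC57 as the next line. MAP70-5, a microtubule-associated protein linked to secondary wall patterning in xylem, had 227, 366, 389 and 282 CPM in PEAR1 and 17.4 and 47.3 CPM in PEAR1-DBOX, against 28.98, 73.4 and 71.99 CPM in NAC57. The aspartyl protease genes AT5G37540 and AT4G16563 averaged 311 and 131 CPM in PEAR1, against 62.3 CPM in PEAR1-DBOX and 13.3 CPM in NAC57. AT5G23370, a GRAM-domain gene annotated as related to an abscisic acid-responsive protein, stood at rank 4 with 92.4, 165, 212 and 139 CPM in PEAR1, against 1.02 and 23.8 CPM in PEAR1-DBOX. Its relative AT5G23350 stood just outside the limit.

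AT5G35935, an annotated pseudogene on chromosome 5 at chr5:14083388-14089891 (TAIR10.1), did not follow the other members. It had 25.4, 22.3, 24.1 and 23.5 CPM in PEAR1, the smallest coefficient of variation of all 100 members at 5.40%, and 0 counts in both PEAR1-DBOX libraries, all 3 NAC57 libraries and all 4 NAC73 libraries. CALS7 held 1.03, 0.225, 0.567 and 2.56 CPM and CVP2-DBOX 0.529, 0, 0 and 0.296 CPM. Its next line was CALS7, the 1 such case among the 100. The other pseudogene, AT3G30875, had 11.6, 30.7, 28.9 and 21.7 CPM in PEAR1, against 0.459, 4.82 and 4.89 CPM in NAC57.

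Of the others in the first 30 ranks, AT2G37440, AT2G42760, AT1G69890, AT5G40450 and AT5G57480 averaged 38.1, 35.6, 26.02, 147 and 60.2 CPM in PEAR1, and AT3G44326, AT1G32690, AT5G23800 and AT2G20670 averaged 27.6, 27.6, 16.7 and 162 CPM. Of these 9, AT2G20670 had the highest mean in another line, with 24.3 CPM in NAC57, and AT5G40450 followed with 16.96 CPM in PEAR1-DBOX. AT5G23800 is the neighbour of AAP7 on chromosome 5, at chr5:8022216-8024795 and chr5:8028238-8030888, also read away from each other, and these and the PIP2B pair are the 2 adjacent pairs among the members. The last 15 of the 30 were AT5G65340, AT3G19030, AT1G20490, AT5G19740, AT1G49740, TRM28, AT1G21050, AT1G66190, AT1G23390, MLP165, CYCP3;2, AT2G21560, AT5G52882, AT5G44530 and AT4G33110, with PEAR1 means from 18.4 CPM for AT5G65340 to 316 CPM for AT5G52882.

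The members varied together inside lines. The rule used single libraries only through the line means and the minimum of 10 CPM in each PEAR1 library. Their share of all counts was 0.709% in PEAR1 library 1 and 0.985% to 1.29% in PEAR1 libraries 2 to 4. It was 0.0761% and 0.226% in PEAR1-DBOX libraries 3 and 5, against 0.0209% to 0.0556% in CVP2-DBOX, 0.0353% to 0.0467% in CALS7, 0.0507%, 0.163% and 0.192% in NAC57 libraries 1, 2 and 4 and 0.00568% to 0.0686% in NAC73. PEAR1 library 1 was the lowest of its line for 84 members, where it was the lowest for 28.9% of eligible genes. PEAR1-DBOX library 5 exceeded library 3 for 92 members, where it did so for 52.4% of eligible genes. NAC57 library 1 was the lowest of its line for 94 members, where it was the lowest for 32.1% of eligible genes.

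The shifts were also measured as ratios between libraries. The median log2 ratio of PEAR1-DBOX library 5 over library 3 was 1.57 over the members and 0.04 over eligible genes, that of NAC57 library 4 over library 1 was 1.59 and -0.01, and that of PEAR1 library 3 over library 1 was 0.87 and -0.04. By role, the median ratio of PEAR1-DBOX library 5 over library 3 in CPM + 1 was 7.07-fold for amino acid and peptide transport and 6.16-fold for phenylpropanoid and lignin members. It was 1.93-fold for the AP2/ERF and 1.94-fold for the R2R3 MYB members. The mean of NAC57 libraries 2 and 4 over library 1 was 5.57-fold for water channels and 1.15-fold for AP2/ERF members. In NAC73, libraries 2 and 3 both lay below libraries 1 and 4 for 60 members, against 56.3% of eligible genes.

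A list of 17 pericycle genes was low in the same libraries. Its summed level was 848, 1860, 1766 and 1457 CPM in PEAR1 libraries 1 to 4 and 147 and 523 CPM in PEAR1-DBOX libraries 3 and 5, against 126, 694 and 625 CPM in NAC57 libraries 1, 2 and 4, 40.6 to 60.1 CPM in CVP2-DBOX, 40.4 to 53.0 CPM in CALS7 and 30.7 to 63.7 CPM in NAC73. PEAR1 library 1, PEAR1-DBOX library 3 and NAC57 library 1 were the low ones of their lines here too. The same 3 libraries were the low ones for the aquaporin list, which holds 3 members, and for the glucosinolate list, which holds 1. No pericycle gene of the list was a member, and its 8 eligible genes had a median log2 ratio of 1.48. UMAMIT18 and PHO1, which load amino acids and phosphate in the stele, averaged 729 ± 254 and 318 ± 94.7 CPM in PEAR1, against 265 ± 189.6 and 112 ± 69.1 CPM in NAC57 (SD, n = 4 and 3). These 2 genes weigh heavily in the sums, and 8 to 10 of the 17 genes reached 10 CPM in a PEAR1 library. The pattern of the sums is therefore not one of all 17 genes alike.

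The part of pericycle cells in the members' levels was not tested, and in sorted populations fewer cells of a type and less RNA per cell cannot be told apart. Lists of other cell types gave the following sums. PEAR1-DBOX library 5 lay above library 3 in the lists of late sieve element, companion cell, xylem, epidermis and root hair, endodermis and root cap genes as well, and below it in those of early protophloem, mitosis and phosphate and nitrate genes. PEAR1 library 1 was also the lowest of its line in the late sieve element, companion cell, root cap and phosphate and nitrate lists. NAC57 library 1 was the lowest of its line in the endodermis, epidermis and root hair, and phosphate and nitrate lists. In the xylem list PEAR1 library 1 and NAC57 library 1 were instead the highest of their lines, at 275 and 25.5 CPM, as they were in the mitosis list. The endodermis and root cap lists had no eligible gene. The endodermis list summed to 15.2 to 82.3 CPM in PEAR1 and 3.12 and 13.1 CPM in PEAR1-DBOX libraries 3 and 5, and the root cap list to 8.68 to 16.5 CPM and 1.83 and 11.2 CPM. The endodermis median was highest in PEAR1, at 32.4 CPM, and the root cap median in CALS7, at 36.6 CPM. The epidermis and root hair list summed to 112 to 330 CPM in PEAR1 and 23.6 and 73.8 CPM in PEAR1-DBOX, against 19.9, 478, 27.2 and 96.2 CPM in CALS7 libraries 1 to 4 and 3.41 to 50.1 CPM over the libraries of the other 3 lines. Its median was thus highest in PEAR1, at 140.2 CPM, and CALS7 library 2 alone exceeded the PEAR1 range. The companion cell list summed to 254 to 403 CPM in PEAR1 and 159.8 and 376 CPM in PEAR1-DBOX. It summed to 1150 to 1274 CPM in CALS7, 925 to 1123 CPM in NAC73, 468 to 640 CPM in NAC57 and 110 to 155 CPM in CVP2-DBOX. The mitosis list summed to 279 to 370 CPM in PEAR1 and 1349 to 2245 CPM in PEAR1-DBOX, against 2144 to 2902 CPM in CVP2-DBOX. It summed to 558 to 652 CPM in NAC57, 30.4 to 58.7 CPM in CALS7 and 34.8 to 62.9 CPM in NAC73.

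**Figure D3:**
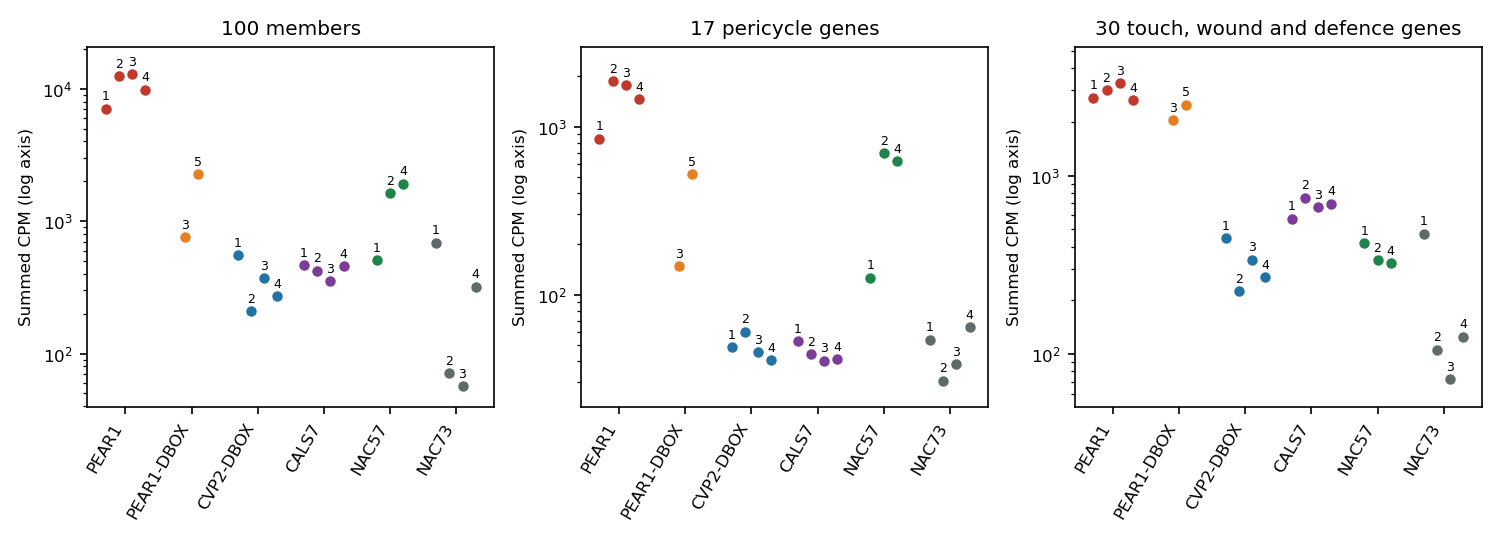
Summed CPM per library on a log axis for the 100 members (left), 17 pericycle genes (middle) and 30 touch, wound and defence genes (right), with the replicate number at each point and lines in the order PEAR1, PEAR1-DBOX, CVP2-DBOX, CALS7, NAC57 and NAC73. Members and pericycle genes share the low libraries PEAR1 1, PEAR1-DBOX 3 and NAC57 1, whereas the touch, wound and defence genes run from 2632 to 3279 CPM in PEAR1 and from 2049 to 2498 CPM in PEAR1-DBOX, well above the other lines.

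Contrasts between the other lines were also tested, although the rule had used the means of those lines. PEAR1-DBOX shares its promoter with PEAR1, so its 2 libraries were compared with each line built on another promoter, asking where the members stand in a separate line with that promoter. The test was edgeR's quasi-likelihood test over 26074 genes with Benjamini-Hochberg adjustment, all 100 members passed its filter, and they also passed it when the PEAR1 libraries were left out. The rule had limited how high a member could be in these lines, through the highest of their means, but not which of them was higher. Genes outside the members were not limited in this way. The shares over all genes are therefore a reference, and the counts of members are not an independent test. No source states that the libraries came from separate cultures, so p-values measure the spread between libraries. The 4 comparisons share the PEAR1-DBOX libraries. The contrasts do not use the PEAR1 libraries, but the fit over all 21 libraries takes part of its estimate of spread from them, so each count is also given for a fit without the PEAR1 line, chosen after seeing the data.

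Against CVP2-DBOX, 24 of the 100 members were higher in PEAR1-DBOX, where 8.14% of all genes tested were higher. None was lower, where 3.87% of all genes were, and 76 did not pass. At an unadjusted p below 0.05 there were 51 members, and the share of all genes at that limit was not counted. The median log2 change was 2.17 over members and 0.01 over all genes. A positive estimate was found for 94 of the 100 members and for 50.3% of all genes. In the fit without the PEAR1 line 13 members were higher, all of them among the 24, where 5.34% of all genes were. XTR6 changed by log2 5.99 ± 0.97 (SE), adjusted p = 0.000435, and AT1G49740, a phosphodiesterase-family gene, by log2 3.94 ± 0.67 (SE), adjusted p = 0.000562, with 4.45 and 18.3 CPM in PEAR1-DBOX against 0.751, 0.684, 0.414 and 1.06 CPM in CVP2-DBOX (edgeR).

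DIR6 was higher by log2 4.58 ± 0.85 (SE), adjusted p = 0.0013, TPPB by log2 3.44 ± 0.77 (SE), adjusted p = 0.00539, and GDU3 by log2 4.85 ± 1.08 (SE), adjusted p = 0.0054 (edgeR). Without PEAR1-DBOX library 5 these 3 no longer passed, at log2 1.65, 1.15 and -1.48. AT3G11280 was higher by log2 5.95 ± 1.18 (SE), adjusted p = 0.00233, and it, XTR6 and AT1G49740 passed in every fit that left out 1 library (edgeR). Of the amino acid and peptide transport members 4 of 6 were higher, of the phenylpropanoid and lignin members 3 of 6, and of the 26 transcription factors 3. MYB28 had 594 counts in PEAR1-DBOX against 2 in CVP2-DBOX, a ratio of pooled CPM of 635 (exact 95% interval 175 to 5251, counting error only), with an adjusted p of 0.00655 in edgeR. Leaving out PEAR1-DBOX library 5 moved the median of all genes to -0.19. Without library 5, 3 members in all were higher, where 3.34% of all genes were, the members' median was 0.72, and MYB28 did not pass, at log2 -2.09.

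Against CALS7, 21 members were higher in PEAR1-DBOX, where 22.5% of all genes were higher, and 1 was lower, where 13.4% were. The share of members called higher was thus near that of all genes, while the median log2 change was 1.77 over members and 0.11 over all genes. In the fit without the PEAR1 line 10 members were higher, where 16.9% of all genes were, and AT5G35935 did not pass as lower. MYB28 had 594 counts in PEAR1-DBOX and none in CALS7, at least 353-fold higher against a floor of 3 counts over the CALS7 libraries, with an adjusted p of 0.00181 (edgeR). XTR6 was higher by log2 3.98 ± 0.90 (SE), adjusted p = 0.00222, ADT4 by log2 4.55 ± 1.05 (SE), adjusted p = 0.00239, and RD28 by log2 2.57 ± 0.64 (SE), adjusted p = 0.00413 (edgeR), and these 3 passed without any 1 library.

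AT3G11280 was higher by log2 4.23 ± 1.1004 (SE), adjusted p = 0.00578 and UMAMIT30 by log2 3.90 ± 1.02 (SE), adjusted p = 0.00582 (edgeR). Neither passed without PEAR1-DBOX library 5, nor did MYB28, which has no count in library 3. Leaving out PEAR1-DBOX library 5 moved the median of all genes to -0.27. Of the amino acid and peptide transport members 5 of 6 were higher in the main fit. AT5G35935 was the lower member, with 0 counts in PEAR1-DBOX against 133 in CALS7, at least 24.9-fold lower, with an adjusted p of 0.0154 (edgeR), and it did not pass when either PEAR1-DBOX library was left out. Without library 5, 5 members were higher and 2 lower, where 17.7% and 13% of all genes were, and the members' median was 0.33.

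Against the line labelled NAC57, 1 member was higher, where 9.71% of all genes were higher, and none was lower, where 8.3% were. At an unadjusted p below 0.05 there were 4 members, and the share of all genes at that limit was not counted. DESeq2 called 3 members higher and 1 lower, where 18.1% and 6.93% of all genes were. The median log2 change was 0.19 over members, against 0.43 over all genes. Estimates were positive for 55 members and negative for 44, where 61.8% of all genes had a positive one. The 1 called member was BGLU24, with 73 counts in PEAR1-DBOX against 1 in NAC57, a ratio of pooled CPM of 99.3 (exact 95% interval 17.3 to 3975, counting error only) and an adjusted p of 0.014 in edgeR. It did not pass without PEAR1-DBOX library 5, NAC57 library 2 or NAC57 library 4, nor in the fit without the PEAR1 line. Without PEAR1-DBOX library 5 no member was higher and 6 were lower, where 4.24% and 6.2% of all genes were, and the members' median turned to -1.16. The median of all genes without PEAR1-DBOX library 5 was 0. In the main fit UMAMIT30, for example, had a log2 change of -0.93 with a standard error of 1.09, and ERF-1 of 2.01 with one of 0.91, so that failing the threshold does not show the lines to be alike.

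Against NAC73, 37 members were higher in PEAR1-DBOX, where 33.5% of all genes were higher, and none was lower, where 17.8% were. The share again lay near that of all genes, and the median log2 change was 1.90 over members and 1.16 over all genes. In the fit without the PEAR1 line 29 members were higher, where 30.7% of all genes were. XTR6 was higher by log2 5.10 ± 0.95 (SE), adjusted p = 0.000299, ORA47 by log2 3.20 ± 0.64 (SE), adjusted p = 0.000591, and AT2G47890 by log2 5.19 ± 1.0963 (SE), adjusted p = 0.000865 (edgeR). GT72B1 was higher by log2 4.08 ± 0.86 (SE), adjusted p = 0.000895, MLP165, of a latex-protein-like family, by log2 4.21 ± 0.93 (SE), adjusted p = 0.00126, and AT3G11280 by log2 5.25 ± 1.17 (SE), adjusted p = 0.00145 (edgeR). All 6 passed without any 1 library.

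MYB28 and GDU2 had no count in NAC73 and were at least 323-fold and at least 50.5-fold higher in PEAR1-DBOX, with adjusted p of 0.00243 and 0.00383 (edgeR). MYB4 was higher by log2 4.19 ± 1.1018 (SE), adjusted p = 0.00484 (edgeR), with 18.5 and 7.41 CPM in PEAR1-DBOX against 1.05, 0.371, 0 and 0.340 CPM in NAC73. Of the transcription factors 9 of 26 were higher, of the phenylpropanoid and lignin members 4 of 6 and of the amino acid and peptide transport members 3 of 6. MYB28 and GDU2 did not pass without PEAR1-DBOX library 5, and MYB4 did not without library 3. Without PEAR1-DBOX library 5, 13 members were higher and 4 lower, where 22.1% and 15.6% of all genes were, and the members' median was 0.54. The median of all genes without PEAR1-DBOX library 5 was 0.17, so it fell as well. Without NAC73 library 1, 51 members were higher, where 34.7% of all genes were. In a fit of PEAR1-DBOX and NAC73 alone 4 of 95 members tested were higher, where 4.42% of all genes were.

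**Figure D4:**
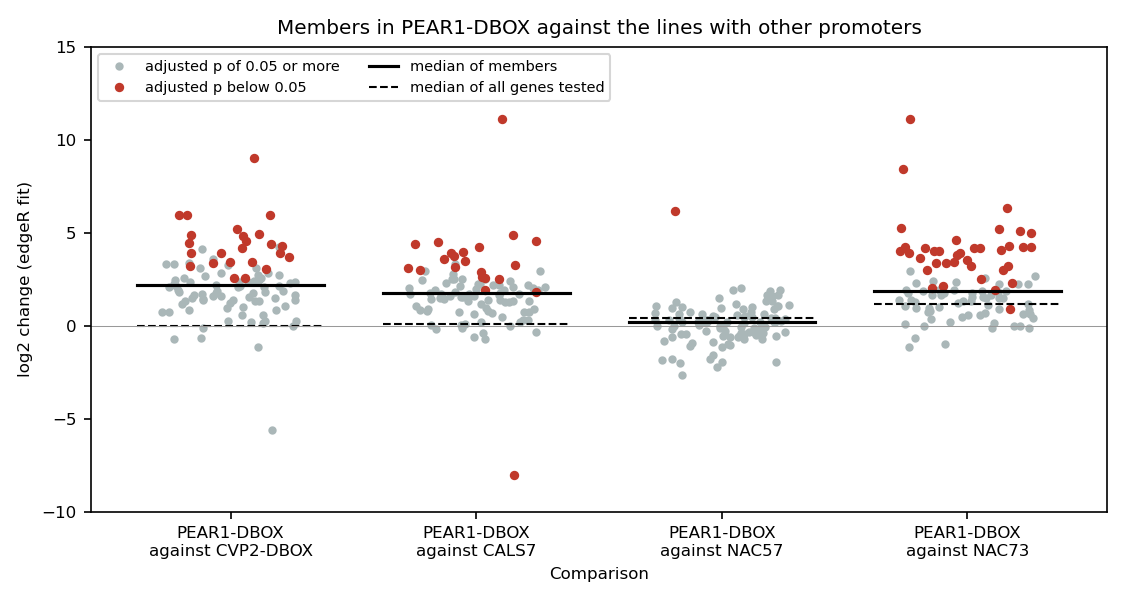
log2 change of the 100 members in PEAR1-DBOX against each line with another promoter, from the edgeR fit, with members past an adjusted p of 0.05 in red, the members' median as a solid bar and the median of all 26074 genes as a dashed bar. The members' median is 2.17 against CVP2-DBOX, 1.77 against CALS7, 0.19 against NAC57 and 1.90 against NAC73. Without PEAR1-DBOX library 5 it is 0.72, 0.33, -1.16 and 0.54, and that of all genes is -0.19, -0.27, 0 and 0.17. The highest points are MYB28, whose fitted value depends on counts of 0 in the line compared.

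The companion gene lists can be read beside the shares of all genes higher in PEAR1-DBOX, which were 8.14% against CVP2-DBOX, 22.5% against CALS7, 9.71% against NAC57 and 33.5% against NAC73. The touch, wound and defence list had 28 genes tested, of which 11 were higher in PEAR1-DBOX against CVP2-DBOX, 12 against CALS7 with 1 lower, 13 against NAC57 and 17 against NAC73. The pericycle list of 17 had 4, 4, 1 and 9 higher in the same order, with 1 lower against NAC73, so that its counts against CALS7 and NAC57 lie near or below the share of all genes. The aquaporin list of 6 had 1, 0, 0 and 1 higher, and the glucosinolate list of 11 had 2, 3, 1 and 4 higher, with 1 lower against NAC73. Their medians in the NAC57 comparison were 2.64 for touch, wound and defence, 0.85 for pericycle and -0.16 for aquaporins, beside 0.43 for all genes.

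The members were spread over the 5 chromosomes, with 19, 16, 15, 23 and 27 on chromosomes 1 to 5, where the eligible genes had 25.4%, 15.1%, 20.3%, 15.4% and 23.8%. All but the 2 pseudogenes are annotated as protein coding, and the median exon length was 1703.5 nucleotides, against 1899 nucleotides in eligible genes. For 9 members more than 5% of the 50-base stretches of their exons also occur in another gene, among them TRM28 with 37.3%, UGT73B1 with 26.0%, AT4G33110 with 20.6% and CYP705A9 with 10.4%, and their counts are uncertain to that extent. The kit does not mark strand, and 7 members overlap the span of a gene on the opposite strand: AT5G40450, UGT73B1, TRM28, MAP70-5, AT5G44530, AT4G33110 and ORA47. Reads from a stretch that both genes cover cannot be told apart there. Of these members, AT5G40450, MAP70-5 and AT5G44530 have no exonic 50-base stretch that also occurs in another gene.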

How the data were processed

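Gene counts per library (raw counts of reads per gene, 33602 genes in each of 21 files) were deposited by the authors. Per the submitters' processing notes the tools were Bowtie2, featureCounts and edgeR with the TAIR10 genome, and no version, strand setting or rule for multiply mapped reads is stated there. Per the labels' protocols, RNA with an integrity value of at least 6.3 was amplified with 18 PCR cycles and sequenced as single 50-base reads.

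CPM was computed here from each file's total. Tests used edgeR 4.0.16 (R 4.3.3) in 1 quasi-likelihood fit over all 21 libraries, with a coefficient per line, TMM factors (0.503 to 1.36), filterByExpr and Benjamini-Hochberg adjustment, called at 0.05. DESeq2 1.42.0, other scalings, a replicate block, left-out libraries and, added after seeing the data, a fit without the PEAR1 line were alternatives. Symbols, exons and sequences came from RefSeq TAIR10.1. A median member standard error near 1.1 log2 units limits precision, and floors and intervals cover counting error only.

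The members and gene lists were chosen with earlier results of these data known. Genes named are the first 30 ranks, list members, those beside the rank limit, up to 6 per direction with the smallest adjusted p in a comparison, neighbours, and the 8 most and 8 least variable in PEAR1. Others were chosen after their values were seen.

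Replicate numbers are not stated to pair the libraries, and the main fit did not pair them. No library pair was a duplicate (lowest chi-square per degree of freedom 15.7).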

Additional observations from a re-analysis of the deposited data

Results flagged for a closer look

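Among the combinations of a member with a line of 4 libraries in which the member averaged at least 20 CPM, a minimum chosen after the data were seen, 4 had 1 library apart from the rest of its line by Dixon's criterion, and 5.05 would be flagged by chance at 1 in 20. In the PEAR1 line library 1 stood low for CYP78A9, with 19.2 CPM beside 45.5 to 48.2 CPM in libraries 2 to 4, and for PTR4, with 35.0 CPM beside 66.3 to 70.1 CPM. Library 1 was also the lowest of the PEAR1 line for 84 of the 100 members. In NAC73, library 1 stood high for AT2G36950, with 91.4 CPM beside 13.2 to 19.3 CPM. In CALS7, library 4 stood high for AT3G62270, with 62.3 CPM beside 25.6 to 30.002 CPM.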

How the results depend on the processing

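Of the recomputed values of 24 pairs of a member and a comparison, 248 kept direction and call, 28 kept direction without the call, and 6 turned direction. RLE factors, DESeq2 and the fit without a filter kept the calls of all 24 pairs. Most pairs were chosen for the smallest adjusted p in the main fit, which favours this. Over all members called against CVP2-DBOX these fits kept 24, 23 and 21 of 24. Against CALS7 they kept 19, 20 and 20 of 22, and against NAC73 37, 36 and 36 of 37.

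Leaving out the PEAR1 line, an alternative chosen after seeing the data, gave 13 members higher against CVP2-DBOX, 10 higher and 0 lower against CALS7, and 0 higher against NAC57, and 22 of the 24 pairs kept their call, the exceptions being AT5G35935 against CALS7 and BGLU24 against NAC57.

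Leaving out 1 library gave 3 to 27 members higher against CVP2-DBOX, 5 to 23 higher and 0 to 2 lower against CALS7, 0 to 1 higher and 0 to 6 lower against NAC57, and 13 to 51 higher and 0 to 4 lower against NAC73, and the 3, 5, 0 and 13 higher and the 2, 6 and 4 lower came without PEAR1-DBOX library 5. With 1 PEAR1-DBOX library left, it is assumed to vary like the other groups. GDU3 against CVP2-DBOX ranged over log2 -1.48 to 5.85, and MYB28 over -2.09 to 11.02, both turning without that library. In the fit of the 2 lines alone 5 members were higher against NAC57 and 4 against NAC73 (10.5% and 4.42% of all genes). DESeq2 called 3 higher and 1 lower against NAC57 (18.1% and 6.93%). The cause of these shifts was not tested.

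With the replicate number as a block, 2 members were higher against CVP2-DBOX, 6 higher and 2 lower against CALS7, 0 higher and 5 lower against NAC57, and 12 higher and 2 lower against NAC73, where 2.14%, 17.6% and 12.2%, 1.84% and 4.18%, and 21.3% and 15.3% of all genes were. Under it GDU3 against CVP2-DBOX was -1.35, and MYB28 was -1.997 against CVP2-DBOX, -0.0496 against CALS7 and -0.0597 against NAC73. Same-numbered libraries deviated with r of -0.18 to 0.20 over 40 pairs (median -0.03, 3 above 0.1). The highest r was that of PEAR1 library 1 with NAC57 library 1. Such a check cannot exclude pairing, and no source states it. Number 5 occurs once, so its block takes up PEAR1-DBOX library 5. The block fit thus rests PEAR1-DBOX on library 3, much as leaving out library 5 does.

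RLE scaling moved the median of all genes by -0.22 against CALS7 and 0.19 against NAC57, where calls became 2929 higher and 1214 lower (70.7% higher), beside 2531 and 2163 (53.9%).

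The rule itself kept 92 of the 100 members with TMM-scaled CPM, 77 with a pseudocount of 5, 79 with a minimum of 20 CPM, 88 with medians, and 64 to 95 when 1 PEAR1 or PEAR1-DBOX library was left out, 64 without PEAR1-DBOX library 5.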
